A study of Mus musculus with 8 samples.

Results

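The genes described are Notch receptors and Notch targets, 6 genes in all: the receptors Notch1 and Notch2, the DNA-binding partner Rbpj, and the target or regulator genes Nrarp, Dtx1 and Hes1. They were chosen by name from 18193 genes on the array, with earlier results of these data known. Every probe set that the platform annotation gives to them was read, which made 12 probe sets of 45037. Nrarp, Notch1, Notch2 and Dtx1 had 2 probe sets each, Rbpj had 3 and Hes1 had 1. Signals came from Affymetrix arrays of naive mouse CD4 T cells, sorted from spleen (CD25-, CD44lo and CD62Lhi) and cultured for 24 h. All cultures held plate-bound antibody to CD3e and soluble antibody to CD28 (1 ug/ml each), IL-2 (10 ng/ml) and antibodies to IFN-g and IL-4 (10 ug/ml each). TGF-b (2 ng/ml) was added or left out.

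There were 4 genotypes, all labelled C57BL/6J. Smad3KO cells lacked Smad3 (Smad3-/-), and Smad2KO cells lacked Smad2 through a deletion restricted to T cells (Smad2del/del). Smad2KO_Smad3het cells were Smad2del/del and Smad3+/-; per the series' design text they stood in for cells without both Smads, of which too few were naive. WT cells were wild type. No source used here gives the Cre line, the age of the mice or any pooling of animals. Each genotype had 1 array with TGF-b and 1 without, 8 arrays in all, and that number limits the precision of every value. A ratio of 2 single arrays has no replicate check and is given without a p.

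Notch receptors are cut after they bind a ligand on a neighbouring cell, and the freed intracellular part enters the nucleus. There it binds the DNA-binding protein Rbpj and turns genes on, among them Hes1, a transcriptional repressor, and Nrarp, which feeds back to limit the intracellular part of Notch. In T cells the pathway is known for fixing the T lineage in the thymus and for shaping helper T cell fates later. TGF-b acts through the transcription factors Smad2 and Smad3, and the comparisons ask which responses of the Notch genes to TGF-b need each Smad.

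The upstream sequences of Nrarp and Rbpj are shown because these genes had the largest TGF-b responses among the 6. Both come from RefSeq (build GRCm38.p6) and cover the 250 bases before the annotated start of the gene, read 5′ to 3′ on the gene's strand, which is the plus strand for both. Capitals mark matches to the Smad box CAGAC or to the Rbpj core TGGGAA, on either strand. The windows lie at chr2:25180508-25180757 and chr5:53590096-53590345.
Nrarp: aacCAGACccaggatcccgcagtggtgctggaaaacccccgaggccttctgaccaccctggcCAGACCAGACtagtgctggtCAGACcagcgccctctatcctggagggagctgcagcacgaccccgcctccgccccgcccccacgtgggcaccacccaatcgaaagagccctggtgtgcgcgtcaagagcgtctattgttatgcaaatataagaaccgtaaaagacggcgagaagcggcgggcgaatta
Rbpj: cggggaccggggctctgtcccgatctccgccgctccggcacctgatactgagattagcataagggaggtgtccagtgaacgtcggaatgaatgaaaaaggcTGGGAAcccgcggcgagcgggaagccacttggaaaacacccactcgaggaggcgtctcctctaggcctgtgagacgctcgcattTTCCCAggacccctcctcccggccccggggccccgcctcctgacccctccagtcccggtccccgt
The Nrarp window held 4 matches to CAGAC, beginning 247, 188, 183 and 168 bases before the start, and no match to TGGGAA. The Rbpj window held 2 matches to TGGGAA, 1 on each strand, beginning 149 and 65 bases before the start, and no match to CAGAC. Of 32851 promoter windows of this length, 42.19% held CAGAC on either strand at least once and 0.4749% held 4 or more. TGGGAA was found in 21.59% of the windows, and 2.77% held 2 or more. A further motif, the N-box CACNAG bound by Hes proteins, was found in 36.67% of windows. It occurred 2 times upstream of Nrarp, with 1 of these sharing a base with a CAGAC match, once each upstream of Notch1, Notch2 and Dtx1, and not upstream of Rbpj. The windows of Notch1, Notch2 and Dtx1 held neither CAGAC nor TGGGAA. A second annotated Rbpj start, for which the window overlaps the one shown, added no match. A match is a description of these letters and shows no binding.

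Before the results, several facts of the arrays bear on them. The arrays were brought to a common trimmed mean, and the median scaled signal of the Smad3KO, Smad2KO and WT arrays, 32.3, served as a floor below which signals have no order. The 2 Smad2KO_Smad3het arrays stood apart. Their median scaled signals were 106 with TGF-b and 103 without, against 30.5 to 35.4 on the other 6, and 46.3% of all probe sets read higher on both of them than on any other array. Their rank correlations with the other arrays were 0.659 to 0.693, against 0.907 to 0.928 among the other 6. Tests were therefore run on the 6 arrays of Smad3KO, Smad2KO and WT. On these, 7 of 7 CD4 T cell markers read (Cd3d, Cd3e, Cd3g, Cd4, Cd5, Cd28 and Trat1) were at 64.5 (2 times the floor) or more on at least 1 array. The same held for 0 of 6 B cell, 0 of 3 NK cell, 0 of 2 erythroid, 1 of 7 myeloid, 1 of 4 stromal or epithelial and 2 of 2 CD8 T cell markers. Summed CD8 marker signals were 67.7 to 131 with TGF-b and 82.9 to 160 without, and summed myeloid signals 143 to 166 with and 154 to 260 without. On the Smad2KO_Smad3het arrays the summed myeloid, B cell and CD8 markers were higher, but not every single marker. At 64.5 or more on at least 1 of these arrays were 5 of 7 myeloid, 4 of 6 B cell and 2 of 2 CD8 markers. The same held for 32275 of all 45037 probe sets, since 64.5 lies under the medians of both arrays. These marker counts therefore do not set the markers apart from other probe sets. Cd8b1 read 13.1 with TGF-b and 157 without there, against 38.1 to 92.2 on the other 6. Ms4a1 and Itgam stayed under the floor. Pax5, at 794 with TGF-b and 421 without, was the largest part of the B cell sum. Summed myeloid signals were 2808 with TGF-b and 2963 without, B cell signals 1179 and 752, against 65.4 to 113 on the other 6, and CD8 signals 1569 and 1223. Summed CD4 T cell signals were 18244 and 17376 there, against 23768 to 25477 on the other 6. These marker differences come together with the Smad2KO_Smad3het genotype, and their part in the values given below was not tested. In bulk samples, fewer cells that express a gene and less RNA per cell cannot be told apart.

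The targeted genes did not settle the labels, and the 3 Smad3 probe sets differed. The brightest Smad3 probe set read 725 with TGF-b and 609 without in Smad3KO, against 544 and 148 in WT. The brightest Smad2 probe set read 1038 and 1145 in Smad2KO, against 1023 and 1061 in WT. No source used here places these probes against the deleted parts, and a probe outside the deleted part checks nothing. The TGF-b targets Smad7 and Skil had higher signals with TGF-b in all 4 genotypes, with mean responses over Smad3KO, Smad2KO and WT of 1.14 and 1.84 on the log2 scale (limma adjusted p = 0.000928 and 1.25e-05).

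**Figure D1:**
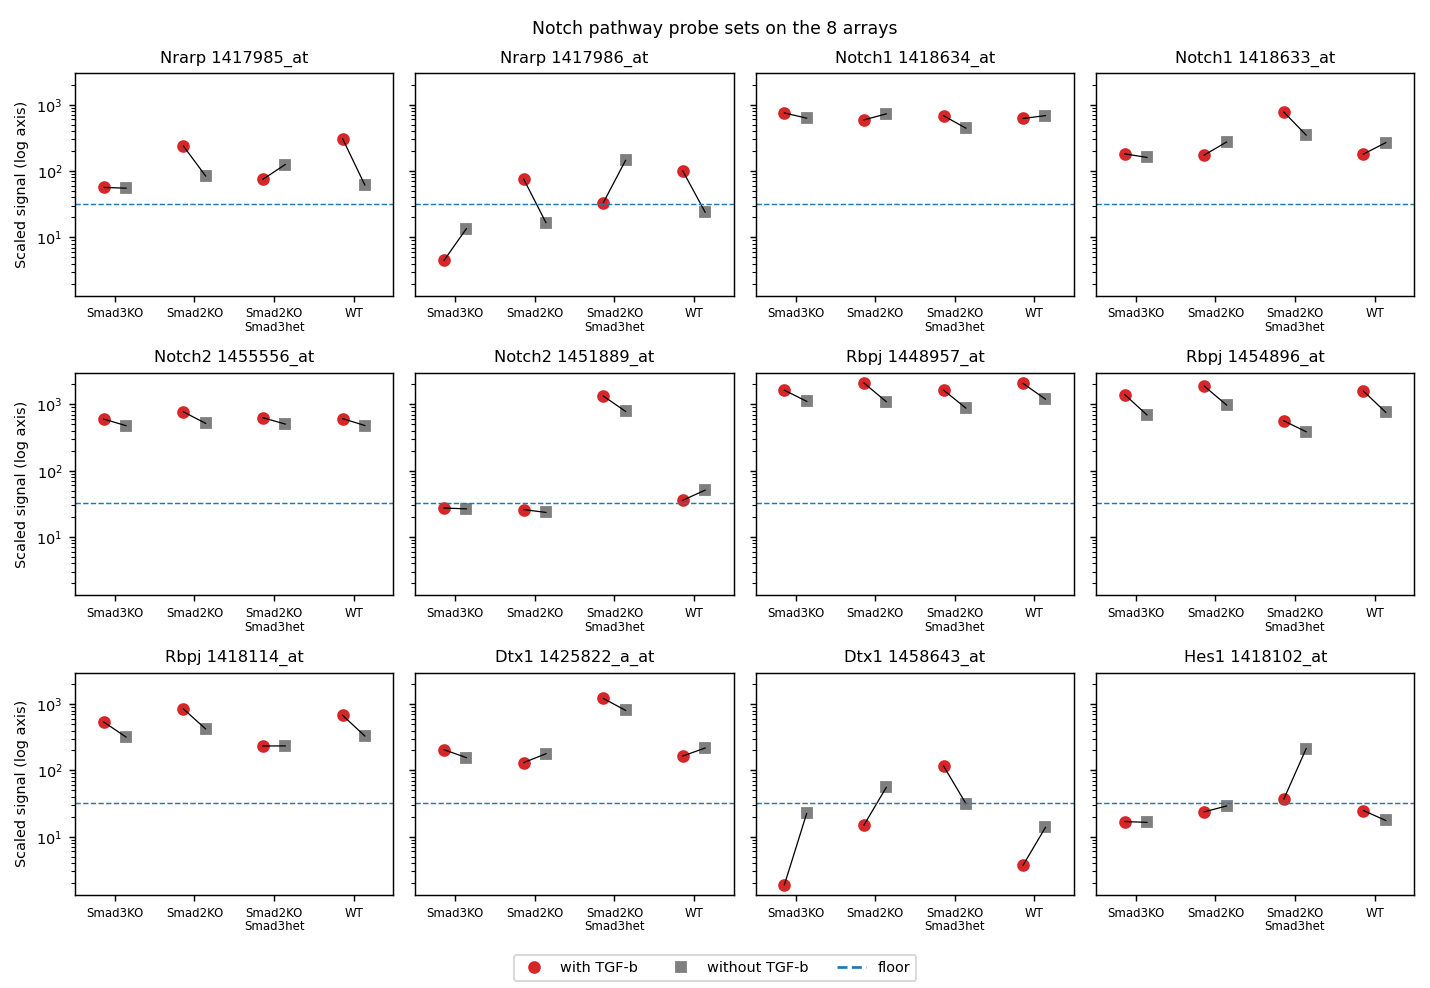
Scaled signal (log axis) of the 12 probe sets on the 8 arrays, with circles for cultures with TGF-b, squares for cultures without it, and a dashed line at the floor of 32.3. Rbpj lies higher with TGF-b on all 3 probe sets in Smad3KO, Smad2KO and WT, whereas Nrarp lies higher in Smad2KO and WT and is level in Smad3KO on its brighter probe set. The Hes1 probe set lies under the floor in these 3 genotypes.

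Of the 12 probe sets, 9 passed the filter on low signals and were tested. Over the 6 arrays, 4 of the 9 rose with TGF-b and 0 fell in the mean response tested with limma, where genotypes served as the repeats. Among all 20149 probe sets tested, 5.92% rose and 3.49% fell. The 4 that rose were the 3 probe sets of Rbpj and the brighter one of Notch2. Since each genotype gave 1 pair of cultures, real differences between genotypes enlarge the spread against which a response is tested. No label ties the cultures to separate mice, and the p-values measure only how these cultures varied.

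Counted by pair, the signal with TGF-b exceeded that without by 2-fold or more for 1 of the 9 tested probe sets in Smad3KO (Rbpj), 3 in Smad2KO (both of Nrarp and 1 of Rbpj) and 4 in WT (both of Nrarp and 2 of Rbpj), and 0 were at least 2-fold lower. Among all probe sets bright in the pair, 2.1% were higher and 0.785% lower in Smad3KO, 3.64% and 1.54% in Smad2KO, and 4.63% and 3.02% in WT. In Smad2KO_Smad3het 1 of the 9 was higher (Notch1) and 1 lower (Nrarp), beside 14.4% and 13% of bright probe sets. A probe set counts as bright where either array reached 64.5. Among the tested arrays, Nrarp 1417986_at reached this only in Smad2KO and WT with TGF-b, so its place in these counts is not separate support.

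Rbpj, the DNA-binding protein through which the cut Notch receptor acts, rose with TGF-b by 0.76 to 1.01 on the log2 scale, depending on the probe set. Its brightest probe set, 1448957_at, read 1642, 2104 and 2073 with TGF-b in Smad3KO, Smad2KO and WT, against 1114, 1103 and 1201 without. All 3 signals with TGF-b lay above all 3 without, as they did for 13.3% of tested probe sets. Its mean response was 0.76 (SE 0.0879, limma adjusted p = 0.000378), higher in 3 of 3 genotypes. Probe set 1454896_at read 1411, 1889 and 1589 with TGF-b in Smad3KO, Smad2KO and WT, against 695, 981 and 762 without. Here the groups did not overlap either, and the mean response was 1.01 (SE 0.0798, adjusted p = 3.02e-05). For 1418114_at the signals were 538, 849 and 680 with TGF-b and 319, 422 and 331 without, in the same order of genotypes. The groups were separate again, with a mean response of 0.93 (SE 0.104, adjusted p = 0.000303). By genotype, the log2 ratios of the 3 probe sets were 0.56, 1.02 and 0.75 in Smad3KO, 0.93, 0.95 and 1.01 in Smad2KO, and 0.79, 1.06 and 1.04 in WT. The Smad3KO ratio was the smallest for 1448957_at and 1418114_at and lay between the others for 1454896_at. The difference between the Smad3KO response and the mean of the WT and Smad2KO responses was -0.30 (SE 0.347), 0.02 (SE 0.369) and -0.27 (SE 0.359), with adjusted p = 0.948, 0.997 and 0.950. All 3 Rbpj calls were lost when the Smad2KO_Smad3het arrays entered the fit, with adjusted p from 0.0680 to 0.285, while the mean responses stayed at 0.70 to 0.89. In Smad2KO_Smad3het, Rbpj read 1647 with TGF-b and 882 without on 1448957_at and 566 and 387 on 1454896_at. On 1418114_at it read 233 and 235 there, so the probe sets did not move together in that genotype.

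Notch2 is a Notch receptor that, like Notch1, is found on T cells. Its brighter probe set, 1455556_at, read 601, 774 and 612 with TGF-b in Smad3KO, Smad2KO and WT, against 479, 518 and 481 without. The groups did not overlap, and the log2 ratios were 0.33, 0.58 and 0.35. The mean response was 0.42 (SE 0.0991, limma adjusted p = 0.0232). This call was lost when the WT pair (adjusted p = 0.0569) or the Smad2KO pair (adjusted p = 0.249) was left out, and with all 8 arrays (adjusted p = 0.171). In Smad2KO_Smad3het the probe set read 630 with TGF-b and 506 without, a log2 ratio of 0.32 beside those of the other genotypes. The rise in WT rests on the scaling, since the deposited signals before scaling were 490 with TGF-b and 533 without. In Smad2KO they were 772 and 613, and in Smad3KO 614 and 447. The other Notch2 probe set, 1451889_at, was not tested, since it read 23.5 to 51.0 on the 6 arrays. On the Smad2KO_Smad3het arrays it read 1342 with TGF-b and 786 without, against 35.9 and 51.0 in WT, where it was too dim for a fold, while the brighter probe set differed from WT there by 1.03-fold and 1.05-fold. The 2 probe sets thus gave unlike values for the same gene in that genotype.

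Nrarp, the feedback inhibitor of Notch, had the largest TGF-b ratios of the 6 genes in WT and Smad2KO and almost none in Smad3KO. Probe set 1417985_at read 56.6, 239 and 309 with TGF-b in Smad3KO, Smad2KO and WT, against 55.2, 84.2 and 61.6 without. The 2 high signals were those of Smad2KO and WT with TGF-b, and the Smad3KO signal with TGF-b lay within the range of the cultures without it. As folds, Nrarp was 1.03-fold higher with TGF-b in Smad3KO, 2.84-fold in Smad2KO and 5.03-fold in WT. Of all probe sets bright in a pair, 0.550% had a higher ratio than this one in WT and 1.24% in Smad2KO.

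The dimmer Nrarp probe set, 1417986_at, was above the floor in Smad2KO and WT with TGF-b and under it on the other 4 of the 6 arrays tested. It read 4.50, 75.9 and 100 with TGF-b in Smad3KO, Smad2KO and WT, against 13.5, 16.7 and 24.0 without. The folds were therefore at least 2.35 in Smad2KO and at least 3.10 in WT, bounds that do not order these genotypes, and none is given for Smad3KO. The scaled and the deposited signals gave one direction in both genotypes: 1417985_at had deposited signals of 238 with TGF-b and 99.5 without in Smad2KO, and 248 and 68.2 in WT.

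Because the genotypes disagreed, the mean response of Nrarp did not pass. It was 1.29 (SE 0.417, limma adjusted p = 0.125) on 1417985_at and 0.96 on 1417986_at. On 1417986_at all signals without TGF-b and the Smad3KO signal with it were raised to the floor. Its mean responses are therefore bounds set by the floor and are given without a test. Leaving out 1 pair gave different values. On 1417985_at the mean response was 1.92 without Smad3KO (adjusted p = 7.12e-06), 1.18 without Smad2KO (adjusted p = 0.400) and 0.77 without WT (adjusted p = 0.286). On 1417986_at it was 1.43, 0.82 and 0.62, with the pairs left out in the same order. The passing value on 1417985_at is the one without the pair that had been seen to lack the higher signal. The difference itself, the Smad3KO response minus the mean of the WT and Smad2KO responses, was -1.88 on 1417985_at (SE 0.521, unadjusted p = 0.0218, limma adjusted p = 0.946). Of 20142 probe sets with a test, 0.149% had a lower difference. On 1417986_at the floor set the difference, which was -1.43 with the floor at the median and -3.05 with it at the 25th percentile of signals, so no test of it is given. This test had 1 residual degree of freedom and called 0% of probe sets in either direction, with 900 at an unadjusted p under 0.05 and 0 called under the 4 scaling and floor alternatives. After adjustment the Nrarp response of Smad3KO is therefore not shown to differ from that of the other genotypes.

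Set against WT directly, Nrarp with TGF-b was 5.47-fold lower in Smad3KO and 1.30-fold lower in Smad2KO, on single arrays. These comparisons share the WT arrays. With TGF-b, 2 of the 9 tested probe sets, both of Nrarp, were at least 2-fold lower in Smad3KO than in WT. None was higher, and the shares of bright probe sets were 2.35% lower and 1.25% higher. Of the Nrarp probe sets, 1417986_at passed the filter only through its signals with TGF-b in Smad2KO and WT, so it is not separate support. Without TGF-b, 0 of 9 were past 2-fold in Smad3KO, beside 1.95% lower and 0.786% higher. In Smad2KO 0 of 9 were past 2-fold from WT, beside 1.53% lower and 1.83% higher with TGF-b and 1.6% lower and 1.12% higher without. Without TGF-b, Nrarp was 1.12-fold lower in Smad3KO and 1.37-fold higher in Smad2KO than in WT. The level over both treatments was lower in Smad3KO than in WT by -1.30 on the log2 scale, which did not pass (SE 0.511, limma adjusted p = 0.469). In Smad2KO_Smad3het Nrarp read 75.1 with TGF-b and 125 without, a log2 ratio of -0.74, and 33.2 and 145 on the dimmer probe set. Both signals with TGF-b lay below the median of their array, 106, and both without it lay above the median of theirs, 103.

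**Figure D2:**
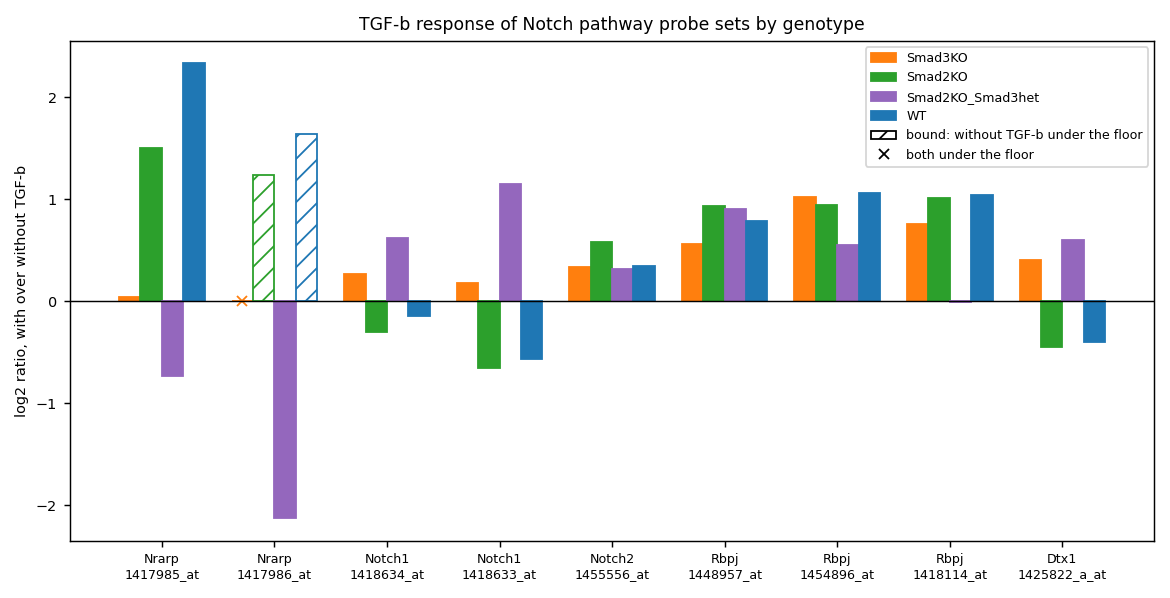
log2 ratio of the signal with TGF-b over that without, for the 9 tested probe sets and each genotype (1 pair of arrays per bar), with hatched bars for bounds and a cross where both signals lay under the floor. Nrarp is near 0 in Smad3KO and 2.84-fold up in Smad2KO and 5.03-fold up in WT on 1417985_at, while the Rbpj bars of Smad3KO, Smad2KO and WT all lie between 0.56 and 1.06.

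Notch1, the main receptor of T cell development, was bright on all 6 arrays and did not pass the test of the mean response. Probe set 1418634_at read 753, 591 and 621 with TGF-b in Smad3KO, Smad2KO and WT, against 627, 729 and 686 without. The groups overlapped, and the mean response was -0.06 (SE 0.115, limma adjusted p = 0.782). Probe set 1418633_at read 182, 174 and 180 with TGF-b, against 161, 274 and 268 without. The 3 signals with TGF-b were close together and the Smad3KO signal without TGF-b was below them, so the mean response of -0.35 did not pass (SE 0.176, adjusted p = 0.256). Both probe sets had ratios of one sign in Smad3KO, 0.26 and 0.18, and of the other sign in Smad2KO (-0.30 and -0.65) and WT (-0.14 and -0.57). The mean response of 1418633_at was -0.61 without the Smad3KO pair (adjusted p = 0.0214), -0.20 without Smad2KO (adjusted p = 0.719) and -0.24 without WT (adjusted p = 0.619), and the passing value is the one without the genotype seen to go the other way. The difference of the Smad3KO response from the other genotypes was 0.49 (SE 0.189, unadjusted p = 0.0609) and 0.79 (SE 0.266, unadjusted p = 0.0401), both with limma adjusted p = 0.946. The robust SD of log2 ratios over all probe sets bright in both cultures of a pair was 0.216 in Smad3KO, 0.281 in Smad2KO and 0.342 in WT, against ratios of 0.26, -0.30 and -0.14 for 1418634_at. In Smad2KO_Smad3het Notch1 read 683 with TGF-b and 444 without on 1418634_at, and 775 and 349 on 1418633_at.

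Dtx1 encodes Deltex1, a ubiquitin ligase that binds the Notch intracellular part and is also known in T cell anergy. Its brighter probe set, 1425822_a_at, followed the sign pattern of Notch1. It read 205, 131 and 165 with TGF-b in Smad3KO, Smad2KO and WT, against 156, 179 and 218 without. The groups overlapped, and the ratios were 0.40 in Smad3KO, -0.45 in Smad2KO and -0.40 in WT. The mean response was -0.15 (SE 0.185, limma adjusted p = 0.661), and the Smad3KO difference was 0.82 (SE 0.194, unadjusted p = 0.0126, adjusted p = 0.946). The other Dtx1 probe set, 1458643_at, was not tested: its signals were 1.88, 15.0 and 3.74 with TGF-b and 22.4, 55.5 and 13.8 without, and the Smad2KO signal without TGF-b was the single one above the floor. On the Smad2KO_Smad3het arrays 1425822_a_at read 1220 with TGF-b and 806 without, above all 6 other arrays.

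Hes1, the classical target of Notch and a repressor of the bHLH family, was not detected above the floor in Smad3KO, Smad2KO or WT. Its probe set, 1418102_at, read 17.0, 23.7 and 24.8 with TGF-b and 16.5, 29.1 and 17.6 without. No fold is given, since both signals of each pair lay under the floor. On the Smad2KO_Smad3het arrays it read 37.2 with TGF-b, below the median of that array (106), and 213 without. These 2 signals, like those of 1418633_at of Notch1, 1451889_at of Notch2 and 1425822_a_at of Dtx1, lay above all 6 other arrays, as did the summed myeloid, B cell and CD8 markers. That made 4 of the 12 probe sets, beside 46.3% of all probe sets on the array. On 2 Rbpj probe sets, 1454896_at and 1418114_at, both signals lay below all 6.

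**Figure D3:**
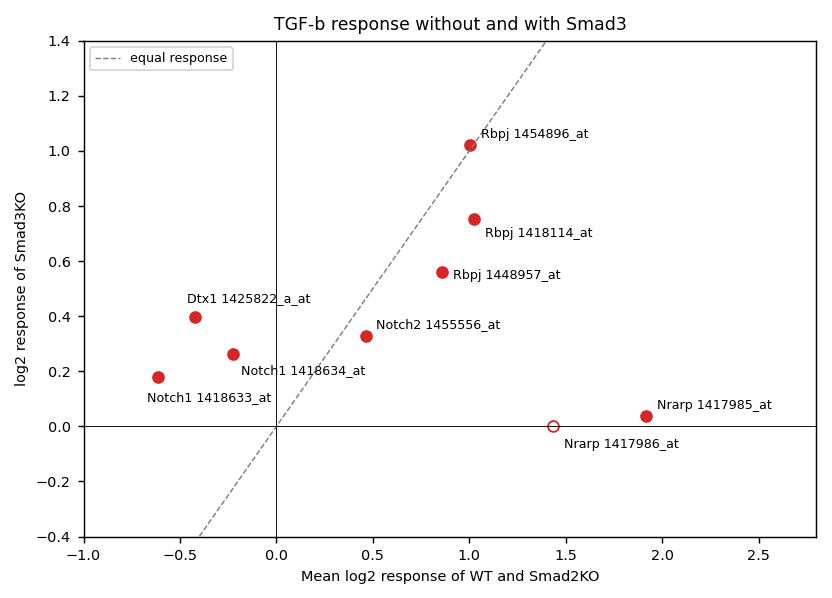
log2 TGF-b response of Smad3KO (vertical axis, 1 pair of arrays) against the mean response of WT and Smad2KO (horizontal axis) for the 9 tested probe sets, with a dashed line of equal response and an open circle where a signal lay under the floor. Nrarp lies far to the right near 0 in Smad3KO, Notch1 and Dtx1 lie above the line with opposite signs, and Rbpj and Notch2 lie closer to the line.

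Levels between genotypes, with TGF-b treatment as a block, gave no call among the 9 tested probe sets. In Smad3KO against WT the adjusted p ran from 0.469 to 0.984, where 0.159% of all tested probe sets were higher and 0.213% lower. In Smad2KO against WT it ran from 0.259 to 0.995, where 0.546% were higher and 0.412% lower. The lowest of these belonged to Rbpj 1454896_at, which was 0.31 higher in Smad2KO than in WT (SE 0.0977), with log2 means of 10.41 and 10.10. Another Rbpj probe set, 1418114_at, was 0.34 higher (SE 0.128, limma adjusted p = 0.381), and the brightest, 1448957_at, was at -0.05 (SE 0.108, adjusted p = 0.935).

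The wider pathway was read from a list of 55 further genes, each by its probe set with the highest mean, and 33 passed the filter. Of these 33, 3 rose with TGF-b, 2 fell and 28 did not pass, with a median mean response of -0.00 on the log2 scale. Over all 9454 genes tested this way, 6.47% rose and 4.58% fell, and the median was -0.02.

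Among genes that process or modify the receptor, Furin, the protease that first cleaves Notch on its way to the surface, rose by 1.28 (SE 0.109, limma adjusted p = 5.11e-05). Furin read 703, 710 and 992 with TGF-b in Smad3KO, Smad2KO and WT, against 305, 328 and 347 without, with no overlap. Pofut1, which adds fucose to Notch, rose by 0.33 (SE 0.0925, adjusted p = 0.0490). Adam10, the protease that cuts the receptor after it binds a ligand, was at -0.25 (adjusted p = 0.0570), and the fringe glycosyltransferase Lfng was at 0.33 (adjusted p = 0.0682). The gamma-secretase subunits Psen2, Ncstn, Aph1a and Psenen were between -0.33 and 0.20, and none passed.

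Among nuclear partners, the acetyltransferase Kat2b rose by 0.55 (SE 0.129, limma adjusted p = 0.0244) and the coactivator Ep300 fell by 0.45 (SE 0.112, adjusted p = 0.0289). The ratios of Kat2b were 0.24 in Smad3KO, 0.48 in Smad2KO and 0.93 in WT, and those of Ep300 -0.21, -0.54 and -0.61. In Smad2KO_Smad3het both had the other sign, with Kat2b at -0.33 and Ep300 at 0.56. Tle3, a Groucho-type corepressor, fell by 0.63 (SE 0.0809, adjusted p = 0.000686), reading 1106, 1070 and 966 with TGF-b in Smad3KO, Smad2KO and WT, against 1614, 1803 and 1465 without. Maml1, the coactivator that joins Notch to Rbpj, was at 0.22 (adjusted p = 0.269). None of the 7 tested regulators passed, among them Numb, Itch, Fbxw7 and Dtx3l.

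Ligands, other receptors and other targets were mostly dim. Of 5 ligands, Jag2 alone was tested, at -0.00 (adjusted p = 0.999). Notch3 read 25.9, 28.8 and 22.96 with TGF-b in Smad3KO, Smad2KO and WT, against 31.4, 32.2 and 51.1 without. Notch4 read 16.4, 16.2 and 21.1 with TGF-b, against 19.3, 27.0 and 35.5 without, in the same order. Neither receptor was bright enough to be tested. Of 9 genes that Notch induces in other settings, 2 were tested, Hes6 at 0.04 (adjusted p = 0.874) and Myc at -0.23 (adjusted p = 0.0584), and Hes5, Hes7, Hey1, Hey2, Heyl, Ptcra and Ccnd1 were too dim.

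**Figure D4:**
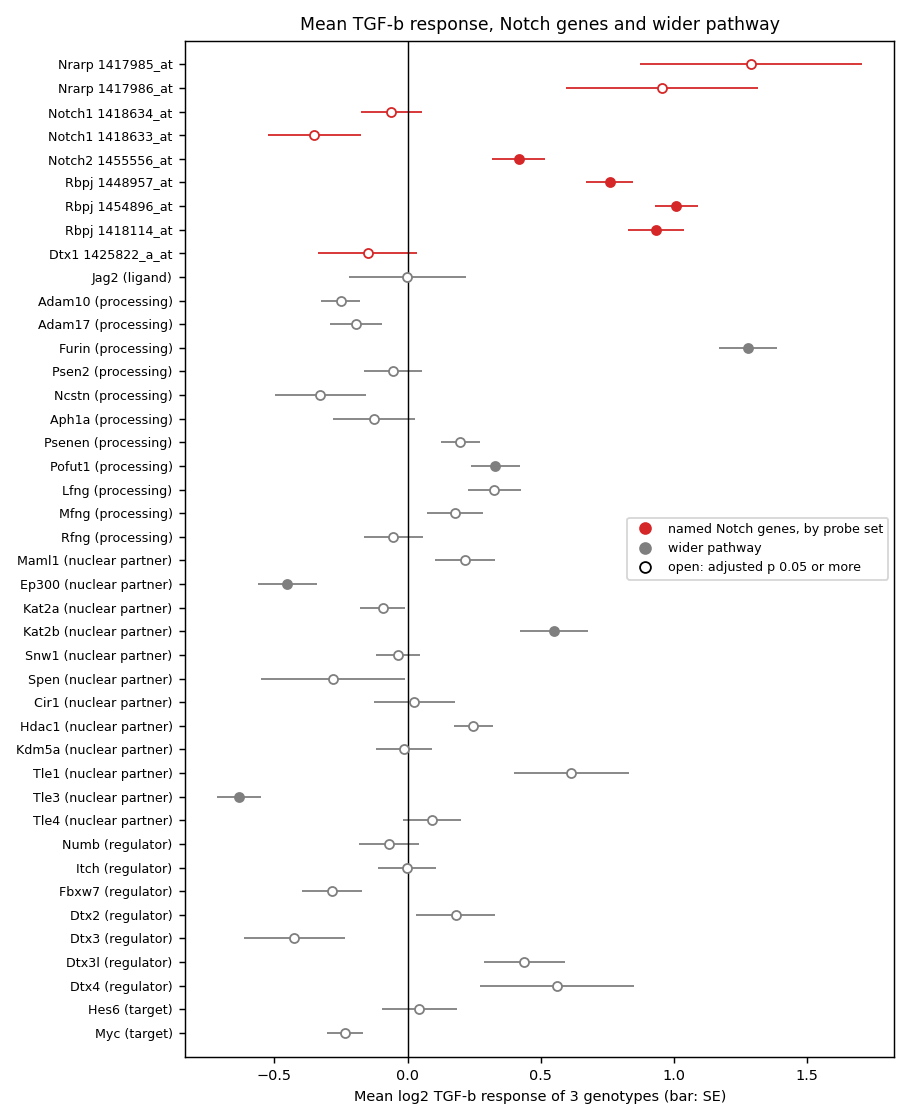
Mean log2 TGF-b response over Smad3KO, Smad2KO and WT (horizontal axis, points with SE bars) for the 9 tested probe sets of the 6 Notch genes and the 33 tested genes of the wider pathway, with filled points where the limma adjusted p was under 0.05. Furin and the 3 Rbpj probe sets lie furthest right among filled points, and Nrarp lies as far right with wide bars and open points.

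Genes with the signal pattern most like each of the 5 tested genes were found by Pearson correlation over the 6 arrays, among 3241 named probe sets that spanned at least 1 on the log2 scale. These describe 6 points that share treatment and genotype. Closest to Nrarp were Endod1 (r = 0.990), Pyroxd2 (0.986) and Lpxn (0.985). Lpxn had TGF-b ratios of 0.47 in Smad3KO, 1.36 in Smad2KO and 2.47 in WT, and Endod1 of 0.08, 1.29 and 1.86. Closest to Rbpj were Med14, Tgfbr1, the type I TGF-b receptor, and the water channel gene Aqp3, at 0.997, 0.997 and 0.996. Tgfbr1 had ratios of 2.07, 3.27 and 3.01, so its changes were larger than those of Rbpj. For Notch2 they were Rasl11b (0.990), the cytokine signalling inhibitor Socs3 (0.988) and Zfp608 (0.987). For Notch1 they were Bahcc1 (0.958), Riok1 (0.958) and Tsc22d1 (0.950), and for Dtx1 Nos3 (0.952), Ap4b1 (0.934) and Kbtbd6 (0.931). Tsc22d1 had a ratio of 1.52 in Smad3KO, against -1.02 in Smad2KO and -0.91 in WT. Its sign pattern is that of Notch1 because it was picked by correlation with Notch1, so it is not support for that pattern.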

How the data were processed

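The deposited values are probe set intensity values on a linear scale, and GCOS 1.4 is named in the submitters' processing notes. No source used here names the algorithm or its scaling. Of 45101 probe sets, 64 controls were left out, and 34945 had 1 gene symbol, 932 several and 9160 none in the platform annotation. Each array was scaled to one trimmed mean (2% off each end). Signals under the floor, the median over the 6 arrays of WT, Smad2KO and Smad3KO, were raised to it before log2. Probe sets reaching 2 times the floor on any of the 6 were tested with limma 3.58.1 in R 4.3.3 (trend and robust settings), with Benjamini-Hochberg adjustment over all probe sets at 0.05. Mean responses had genotype as a block and levels had treatment as a block (2 residual degrees of freedom each), and the difference of responses was fitted to 3 ratios. The procedure was also run on simulated data with independent noise, a simpler setting than these arrays, and no result given here rests on it. Figures were drawn with matplotlib 3.10.9. A probe set is bright in a comparison if either array reaches 2 times the floor. The 6 genes, the wider list, the markers and the tests were chosen with earlier results of these data known. Named genes were all probe sets of the 6, pathway genes past the test (up to 8 per direction), Adam10, Maml1, Notch3, Notch4, Smad7, Skil, and 3 genes most like each; some listed genes are not reported here, and others were named after their values were seen. Alternatives covered scaling, floor, filter, variance model, block, arrays and the unit tested.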

Additional observations from a re-analysis of the deposited data

How the results depend on the processing

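The mean responses of the 4 called probe sets kept their direction under every alternative run. The calls held under quantile normalization, median centring, a floor at the 25th percentile (7.13), an offset in place of a floor, and a filter at 4 times the floor. Against 4 members called higher, the count was 2 without limma's trend and robust settings, 0 on all 8 arrays and 2 with 1 probe set per gene, where 5 members were tested. Leaving out the WT pair or the Smad2KO pair gave 3 members higher and 0 lower. Leaving out the Smad3KO pair, which had been seen to differ, gave 6 higher and 1 lower, beside 1546 higher and 1192 lower of 19900 probe sets. The 6 include Nrarp 1417986_at, for which the floor sets the values, so this count is not support for a response. Notch2 lost its call with no filter (adjusted p = 0.0964), without the genotype block (0.0851) and without trend and robust settings (0.133), and the last setting also took the call from Rbpj 1448957_at (0.0576). Over all probe sets, against 1193 higher and 704 lower, the counts were 373 and 142 with no filter, 309 and 93 without trend and robust settings, 631 and 282 without the genotype block, and 19 and 3 on all 8 arrays. They were 677 higher with 1 probe set per gene (9454 tested), 1063 lower with median centring, and 550 to 1546 higher and 242 to 1192 lower with a pair left out. For levels, with median centring 58 probe sets were higher and 149 lower in Smad2KO than in WT (110 and 83 in the report's fit), and 17 and 74 in Smad3KO (32 and 43). On all 8 arrays these were 4 and 2 in Smad2KO, and 0 and 2 in Smad3KO. Probe sets at least 2-fold higher or lower with TGF-b, with the floor at the 25th percentile, were 2912 and 2669 in Smad3KO, 2990 and 3050 in Smad2KO, 6988 and 6505 in Smad2KO_Smad3het, and 4321 and 3954 in WT. With an offset they were 206 and 64 in Smad3KO, 413 and 137 in Smad2KO, and 572 and 296 in WT. The report's floor gave 390 and 146, 691 and 293, 4654 and 4202, and 893 and 583, in the order of the first of these lists. Where no cause is stated it was not tested. No paired analysis by replicate number was possible because each genotype and treatment had 1 array. Of 192 log2 ratios of single pairs recomputed for the 12 probe sets, 19 moved by more than the robust SD of their pair. Signals near the floor limit Nrarp 1417986_at, Hes1 and the dimmer probe sets of Notch2 and Dtx1. Low signals also limit the size of the Nrarp 1417985_at ratios. It read 61.6 in WT without TGF-b, and 56.6 with and 55.2 without in Smad3KO, all under 2 times the floor. Its WT and Smad2KO ratios moved by more than the robust SD with an offset, and kept their direction.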
